A study of Enchytraeus albidus with 42 samples.

Results

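The transcripts described here are those of the mitochondrial respiratory chain, of ATP synthase and of lombricine kinase in the soil worm Enchytraeus albidus. They were chosen by name: a transcript was taken when its name in the study's supplementary list of responding transcripts contained cytochrome c, cytochrome b, nadh dehydrogenase, ubiquinol, ubiquinone or atp synthase, and lombricine kinase (EAC00260) was added. This gave 17 transcripts of the 1035 measured on the array and of the 225 that the list names. By complex, 7 belonged to complex I, 2 to complex III, 2 to complex IV and 5 to ATP synthase, and 1 was the kinase. By their names, 3 are encoded in the mitochondrial genome and 11 in the nucleus, and for 3 the name does not settle it. The list holds transcripts that the study had called on these same arrays. The counts given below, against the controls and between concentrations, are therefore not independent evidence that these transcripts responded. The shares set beside them are over all 1035 transcripts, whether or not the list held them.

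Adult worms were kept for 2 days in 25 g of spiked soil, and RNA of whole worms from 1 vessel was hybridised to each array (the labels give 15 worms per vessel and the methods 10). The 42 one-colour arrays form 14 groups of 3. Dimethoate, an organophosphate insecticide, was dosed in water at 0.1, 0.5, 2.0 and 25 mg/kg, and its control is soil with water. Atrazine, a triazine herbicide, was dosed in acetone at 0.2, 0.5, 3.0 and 50 mg/kg, and carbendazim, a benzimidazole fungicide, in acetone at 0.05, 0.1, 0.5 and 3.0 mg/kg. Their control is a solvent control, in which acetone was added to the soil and evaporated overnight. The 4 concentrations of each pesticide are named by the percentage by which they lower the number of juveniles, EC10, EC20, EC50 and EC90. EC10 and EC20 are called the lower and EC50 and EC90 the higher concentrations below.

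In the inner mitochondrial membrane, complex I takes electrons from NADH to ubiquinone, complex III passes them from ubiquinol to cytochrome c, and complex IV passes them to oxygen. The proton gradient that these complexes build drives ATP synthase, whose ring of c subunits turns in the membrane. A few core subunits, among them ND1, ND4 and cytochrome b, are encoded in the mitochondrial genome of animals, and most subunits are encoded in the nucleus. Lombricine kinase is a phosphagen kinase of annelids: it moves phosphate between ATP and lombricine and buffers ATP in working cells, as creatine kinase does in vertebrate muscle. Because RNA came from whole worms, fewer cells of a type and less RNA per cell cannot be told apart.

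On each array 74.7% to 94.5% of the transcripts were well above background and 1.84% to 5.51% were saturated. Hybridisation used 8 slides, read in 16 scans. The arrays of 1 scan, dimethoate EC10 replicate 1 and dimethoate EC20 replicate 2, stood apart: over all transcripts, their values differed from the mean of their group with an SD of 0.891 and 0.845 on the log2 scale, against 0.285 to 0.618 for the other arrays. Values are therefore given with and without these 2 arrays, which are called the deviating scan. For dimethoate, the lower concentrations were hybridised on 3 slides and the higher on 1, with 0 slides in common, so that slide and concentration cannot be told apart there. The lower and higher concentrations of carbendazim also had 0 slides in common, with the same limit, and those of atrazine shared 1. In dimethoate EC50 and carbendazim EC10, EC20 and EC50, all 3 arrays of the group came from 1 scan. The estimated correlation between arrays of the same scan was 0.575 over all transcripts, against 0.0467 for arrays of the same slide. The main fit treats arrays of the same scan as independent, so its p-values do not allow for this. As for the tissue, 12 of 13 transcripts of myosin, tropomyosin, troponin t and muscle actin and 2 of 2 hemoglobin transcripts were well above background on at least 21 arrays, and the cilia and sperm marker tektin 2 was not.

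All levels are log2 of the processed signal, with each array shifted to the same median, and a difference of 1 is a 2-fold change. Brightness depends on the probe as well as on the RNA, so levels are compared between arrays and not between transcripts. Of the 17 transcripts, 12 gave bright spots, with means over the 42 arrays from 10.5 to 15.7, and these are the 2 c subunit transcripts and 2 e chain transcripts of ATP synthase, 5 of complex I, cytochrome b, cytochrome c oxidase VIa isoform cra_a and lombricine kinase. Another 4 were dim, with means from 4.56 to 5.89. The last, a ubiquinol-cytochrome c subunit (EAC00657), was well above background on 3 arrays and is not followed further. ND1 was saturated on 2 arrays and ND4 on 4.

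The main contrast in these transcripts lay between the lower and the higher concentrations of dimethoate. With all arrays, 8 of the 17 passed the test: 7 transcripts of complex I and ATP synthase were lower at EC50 and EC90 than at EC10 and EC20, and lombricine kinase was higher (limma, Benjamini-Hochberg adjustment over all 1035 transcripts, adjusted p under 0.05). Of all transcripts on the array, 17.3% were called in this comparison, 7.54% lower and 9.76% higher. The split moved with the scaling: 75th percentile scaling gave 9 lower and 0 higher and quantile scaling 7 lower and 0 higher, so that the kinase was not called under either. Slide as a fixed block, scan as a random block and a fit of only the groups compared each left 0 of the 17 called. Of complex I, 7 of 7 transcripts had lower values, 3 of them called, with a median difference of −0.64, or −0.15 with 0 called without the deviating scan. Of ATP synthase, 4 of 5 were lower, all 4 of them called, with a median of −0.75, or −0.30 with 5 of 5 lower and 2 called without that scan. These 4 are the c subunit pair and the e chain pair. The members of each pair moved together over the arrays (Pearson's r 0.962 and 0.999), so the counts do not rest on separate observations. When the deviating scan was left out, 3 of the 17 were called, all lower, against 2.32% of all transcripts called lower: both c subunits of ATP synthase and cytochrome c oxidase VIa isoform cra_a, which was not among the 8.

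The c subunits of ATP synthase form the membrane rotor, and the array holds a pair of transcripts for them. The first, named atp synthase lipid-binding protein (EAC00240), read 13.33, 13.22 and 13.22 in the water control. In dimethoate EC10 it read 14.51, 13.38 and 13.46, and in EC20 13.67, 14.77 and 13.37. In EC50 the arrays read 13.34, 13.14 and 13.07, and in EC90 13.03, 13.04 and 13.03. Every array of the lower concentrations was above every array of the higher, and the values 14.51 and 14.77 came from the deviating scan. The fitted difference was −0.75 (SE 0.171, 95% interval −1.10 to −0.40, 1.68-fold lower, adjusted p 0.00307 in limma). It was −0.36 without the deviating scan (SE 0.0974, interval −0.56 to −0.16, adjusted p 0.0201), so these 2 arrays carried part of the size of the difference.

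The second, ATP synthase subunit 9 (EAC00294), read 13.05, 13.09 and 12.94 in the water control. It read 14.13, 13.16 and 13.07 in EC10 and 13.36, 14.45 and 13.00 in EC20. In EC50 it read 12.92, 12.90 and 12.80, and in EC90 12.64, 12.69 and 12.75. Again no array of the higher concentrations reached the lowest of the lower ones, and 6 of 6 arrays at EC50 and EC90 were below all 3 water controls. The difference was −0.74 (SE 0.171, adjusted p 0.0032) with all arrays and −0.36 (SE 0.102, interval −0.57 to −0.15, adjusted p 0.0246) without the deviating scan. The pair moved together over the 42 arrays (Pearson's r 0.962, and 0.879 over the 40 arrays without the deviating scan). The probe sequences were not used here, so how much of the RNA both probes share was not tested.

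Cytochrome c oxidase subunit VIa, a small nuclear subunit of complex IV, had 2 transcripts with unlike patterns. The bright one, isoform cra_a (EAC00068), ranged from 12.90 to 12.94 in EC50 and from 12.70 to 12.75 in EC90, against 13.00 to 13.14 in the water control. Its 4 arrays at the lower concentrations outside the deviating scan lay between 13.08 and 13.33, above all 6 arrays of the higher. Inside that scan it read 12.69 in EC10 and 12.95 in EC20, low where the c subunits were high. With all arrays its difference was −0.24 (adjusted p 0.0968), and without the deviating scan −0.35 (SE 0.0873, interval −0.53 to −0.17, adjusted p 0.0102). With all arrays and normexp background correction the sign turned, to 0.06 (adjusted p 0.774). The dim one, polypeptide 1 (EAC00356), differed by −0.02 between the higher and lower concentrations of dimethoate (adjusted p 0.924).

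The e chain is a small accessory subunit of the membrane part of ATP synthase, and the array holds a pair of e chain transcripts. EAC00748 read 13.74, 13.77 and 13.68 in the water control. It read 15.09, 13.81 and 13.58 in EC10 and 13.77, 15.44 and 13.51 in EC20. In EC50 it read 13.58, 13.68 and 13.44, and in EC90 13.26, 13.13 and 13.09. Outside the deviating scan, EC10 and EC20 overlapped EC50, and the 3 arrays of EC90 were the lowest of the dimethoate arrays. The difference was −0.84 (SE 0.237, adjusted p 0.0142) with all arrays and −0.30 (adjusted p 0.23) without the deviating scan. EAC00665 read 13.78, 13.78 and 13.72 in the water control and 13.27, 13.13 and 13.11 in EC90. Its EC10 arrays read 15.09, 13.82 and 13.57, its EC20 arrays 13.79, 15.45 and 13.53, and its EC50 arrays 13.61, 13.70 and 13.49. It followed EAC00748 with r = 0.999 over the 42 arrays, so the pair cannot be counted as separate observations, and its difference was −0.82 (adjusted p 0.0151), or −0.29 (adjusted p 0.248) without the deviating scan.

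**Figure D1:**
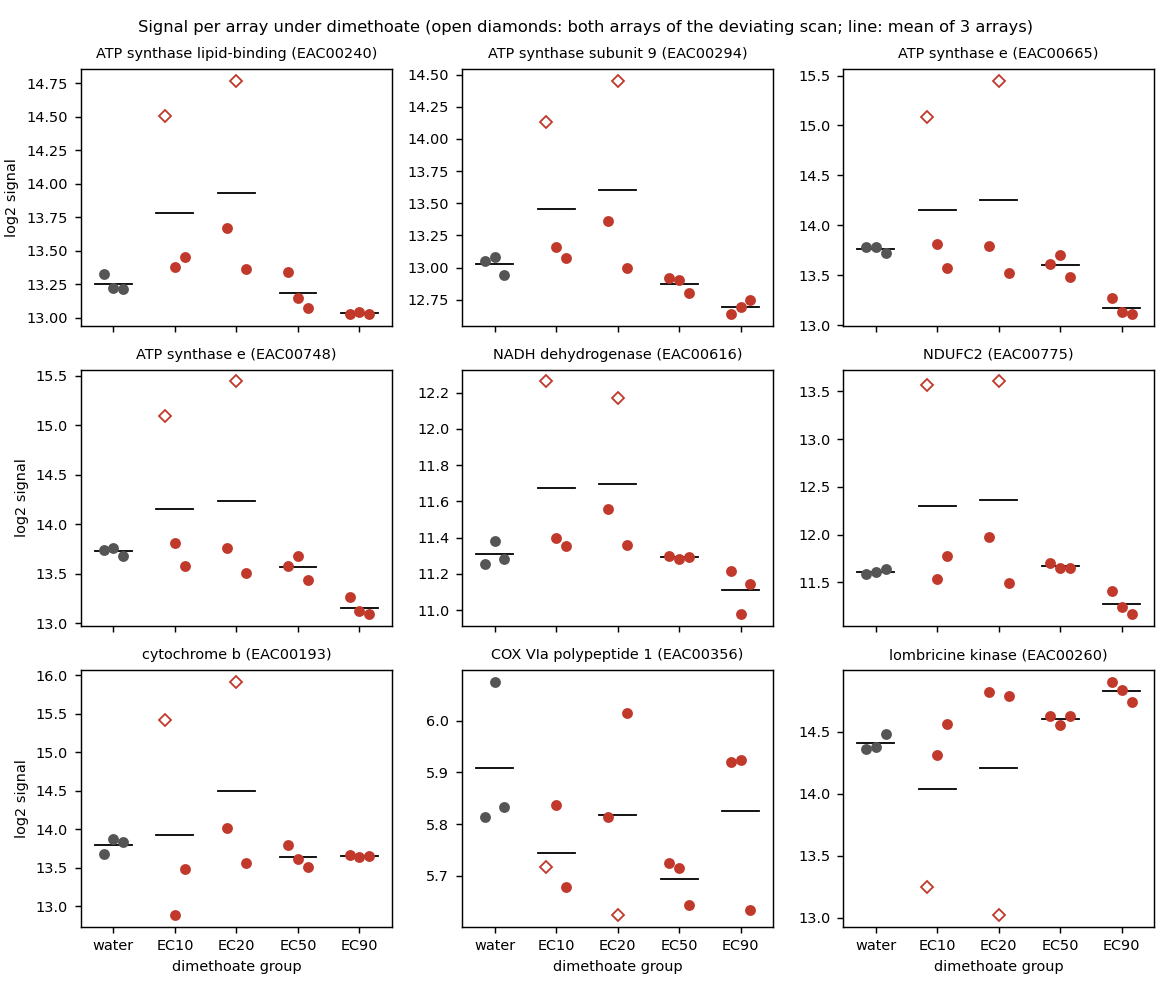
Log2 processed signal of 9 transcripts on each array of the water control and of the 4 dimethoate groups, 1 panel per transcript. Points are arrays, lines are means of 3 arrays, and open diamonds are the 2 arrays of the deviating scan, which lie above the other arrays in 7 panels and below them for lombricine kinase.

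In complex I, the called transcripts were an NADH dehydrogenase transcript with no subunit in its name (EAC00616), ndufc2 and ND4. EAC00616 read 11.26, 11.38 and 11.28 in the water control. It read 12.26, 11.40 and 11.36 in EC10 and 11.56, 12.17 and 11.36 in EC20. In EC50 it read 11.30, 11.28 and 11.29, and in EC90 11.22, 10.98 and 11.14. The lower and higher concentrations did not overlap, and the closest arrays of either side read 11.36 and 11.30. Its difference was −0.48 (SE 0.135, 1.40-fold lower, adjusted p 0.0133) with all arrays and −0.22 (adjusted p 0.14) without the deviating scan, and normexp with all arrays gave −0.17 (adjusted p 0.204).

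The transcript of ndufc2 (EAC00775), a nuclear accessory subunit of complex I, had the largest difference of the 17 with all arrays. It read 11.58, 11.60 and 11.64 in the water control, 13.57, 11.54 and 11.78 in EC10, and 11.97, 13.60 and 11.50 in EC20. In EC50 it read 11.70, 11.66 and 11.65, and in EC90 11.41, 11.24 and 11.17. The arrays with 13.57 and 13.60, both of the deviating scan, stood about 2 log2 units above the water control, and the other 4 arrays of the lower concentrations overlapped EC50. The difference was −0.85 (SE 0.25, interval −1.36 to −0.34, 1.81-fold lower, adjusted p 0.0174), and without the deviating scan −0.22 (adjusted p 0.247). The ESSS subunit (EAC00388), also nuclear, differed by −0.13 (adjusted p 0.364) and did not take part in the rise on the deviating scan, where it read 10.74 in EC10 and 10.55 in EC20 against 10.53 to 10.74 in the water control.

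The 3 subunits encoded in the mitochondrial genome had high values on the deviating scan and no difference beyond their spread without it. ND4 (EAC00478) read 17.17 and 17.27 there and 15.52 to 15.78 on the other 4 arrays of the lower concentrations. Its difference was −0.68 (SE 0.237, adjusted p 0.046) with all arrays and −0.15 without the deviating scan, and some of its arrays were saturated. ND1 (EAC00842), which followed ND4 with r = 0.965 over the 42 arrays, differed by −0.70 (adjusted p 0.0603), or by −0.11 without that scan. Cytochrome b (EAC00193), the core subunit of complex III, read 13.68, 13.87 and 13.83 in the water control, 15.42, 12.89 and 13.48 in EC10, and 14.02, 15.91 and 13.56 in EC20. It read 13.80, 13.61 and 13.51 in EC50 and 13.66, 13.64 and 13.65 in EC90, inside the range of the lower concentrations. Its difference was −0.57 (interval −1.23 to 0.09, adjusted p 0.206) and turned to 0.16 without the deviating scan.

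Of the dim transcripts, 0 of 4 were called between the higher and lower concentrations of dimethoate. The putative NADH dehydrogenase (EAC00504) differed by −0.64 (adjusted p 0.0542), or by −0.13 without the deviating scan. It was called lower with all arrays under 75th percentile scaling (−0.72, adjusted p 0.0416), quantile normalization (−0.85, adjusted p 0.0145) and normexp (−0.31, adjusted p 0.0333). The mitochondrial nadh:ubiquinone oxidoreductase (EAC00204) differed by −0.39 (adjusted p 0.206), or by −0.05. The gamma subunit of ATP synthase (EAC00103), part of the central stalk that turns with the c ring, differed by 0.32 (adjusted p 0.219), or by −0.03. Cytochrome c oxidase VIa polypeptide 1 differed by −0.08 without the deviating scan, so the 4 dim transcripts lay between −0.13 and −0.03 there.

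Lombricine kinase (EAC00260) went the other way from the bright chain transcripts with all arrays. It read 14.36, 14.38 and 14.48 in the water control. It read 13.25, 14.31 and 14.56 in EC10 and 14.82, 13.02 and 14.79 in EC20, where the low values 13.25 and 13.02 are those of the deviating scan. In EC50 it read 14.62, 14.56 and 14.63, and in EC90 14.90, 14.83 and 14.74. All 6 arrays of the higher concentrations were above the 3 water controls, and they overlapped the lower concentrations. The difference was 0.59 (SE 0.209, interval 0.16 to 1.02, 1.50-fold higher, adjusted p 0.049) with all arrays and 0.09 (interval −0.13 to 0.32, adjusted p 0.671) without the deviating scan, so the call rested on those 2 arrays.

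**Figure D2:**
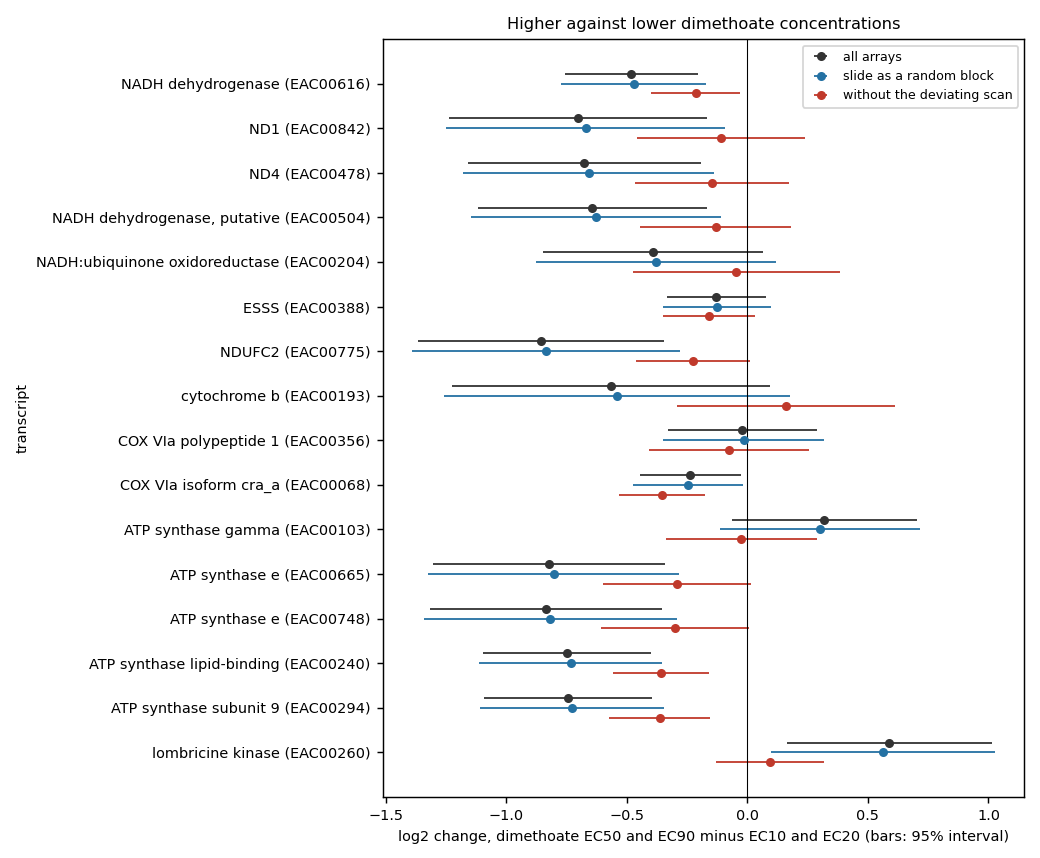
Log2 difference between the higher (EC50 and EC90) and lower (EC10 and EC20) dimethoate concentrations for each transcript, with 95% intervals, from all arrays, with slide as a random block, and without the 2 arrays of the deviating scan. Most intervals move toward 0 without that scan, and those of both c subunits (−0.36 each), cytochrome c oxidase VIa isoform cra_a (−0.35) and EAC00616 (−0.22) do not reach it. Intervals are not adjusted for the number of transcripts.

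Taken array by array, 3 of the 17 transcripts had all 6 higher-concentration arrays below all 6 lower-concentration arrays, against 2.32% of all transcripts: EAC00616 and both c subunits. Without the deviating scan, in 4 arrays against 6, 4 transcripts did so, against 4.25% of all, with isoform cra_a as the addition. Other gene lists are given beside these without a test of the difference. Of 20 ribosomal proteins 0 were called, with a median of −0.21, or 0.12 without the deviating scan. Of 13 muscle transcripts 1 was called higher and 1 lower, with a median of 0.10, and of 5 other enzymes of energy metabolism 1 was called higher, with a median of 0.18 (0.06 and 0.11 without that scan, with 0 called in either list). Of 3 other mitochondrial proteins, the heat shock proteins hsp10 and hsp60 and a coiled-coil-helix protein, 0 were called, with a median of −0.25, or −0.00 without that scan. The summed level of the muscle transcripts ranged from 17.40 to 17.93 in EC10 and EC20 and from 17.38 to 17.58 in EC50 and EC90, and the part of muscle content in these differences was not tested.

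The same contrast in the other pesticides gave 0 of 17 called transcripts for atrazine and 0 of 17 for carbendazim, where 0% and 0.966% of all transcripts were called (at an unadjusted limma p under 0.05, 3 of 17, all higher, against 15.5% of all transcripts, and 0 of 17 against 8.6%, and with the methods' unadjusted t-test 3 and 8 of 17, against 10.1% and 18.4%). The 11 bright chain transcripts had a median of −0.05 in atrazine and of −0.12 in carbendazim. For the c subunit transcript EAC00240, the dimethoate difference minus the atrazine difference was −0.85 (SE 0.242, interval −1.34 to −0.35, adjusted p 0.0285), in a test in which 0.773% of all transcripts were called lower. Against carbendazim the same difference was −0.58 (adjusted p 0.272), and 0 of the 1035 transcripts were called, with 15.7% at an unadjusted limma p under 0.05. All other transcripts of the 17 missed the threshold in both tests, which does not show that the pesticides acted alike.

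Against the controls, 0 of the 17 transcripts passed in any of the 12 comparisons of a pesticide concentration with its control. Over all transcripts, 3.77% were called at 1 or more concentrations of dimethoate, 0% of atrazine and 3.96% of carbendazim. At an unadjusted limma p under 0.05, 4 of the 17 passed at 1 or more concentrations of dimethoate, 6 of atrazine and 7 of carbendazim (23.5%, 35.3% and 41.2%, against 26.2%, 20.4% and 28.8% of all transcripts). Without the deviating scan 1 was called for dimethoate, 2 for atrazine and 7 for carbendazim after adjustment, against 6.09%, 3.48% and 18.5% of all transcripts. The methods' unadjusted t-test, which also chose the study's list, passed 9, 6 and 8 of the 17, against 31.3%, 15.2% and 32.2% of all, so these counts are raised by construction. Dimethoate EC10 and EC20 gave medians of 0.39 and 0.51 for the 11 bright chain transcripts, with 10 and 11 of them higher than the water control. EC50 and EC90 gave −0.15 and −0.24, with 2 and 0 of 11 higher. Among the arrays on the slide that held 2 water controls with 4 arrays of EC10 and EC20, the median was 0.65, and without the deviating scan −0.03, with 5 of 11 higher in 2 arrays against 2. On the slide of EC50 and EC90, 6 arrays against 1 water control gave −0.18, with 0 of 11 higher. At EC90 the e chain pair gave −0.59 and −0.57, lombricine kinase 0.42 and isoform cra_a −0.37.

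**Figure D3:**
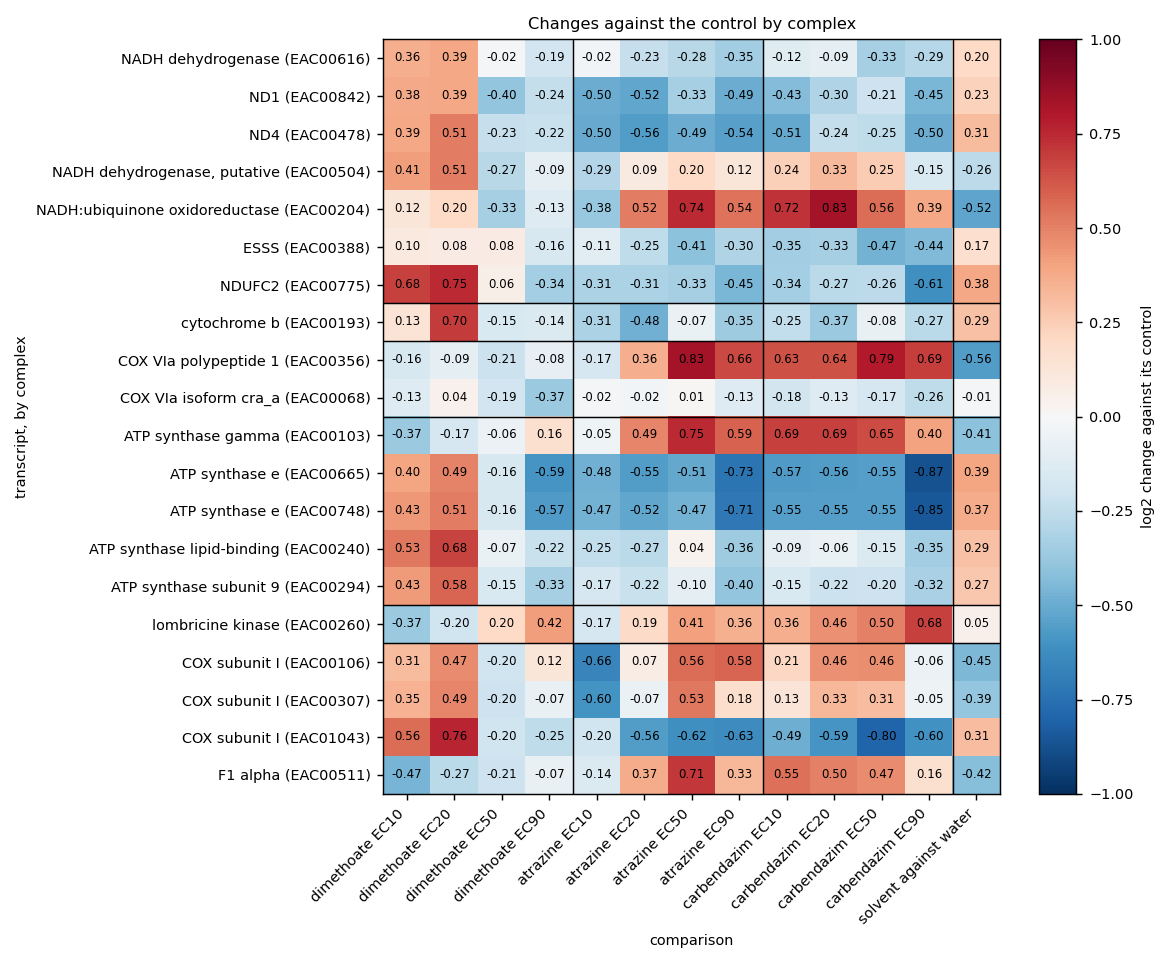
Log2 difference from the control for 16 of the 17 transcripts and 4 related transcripts (vertical) in each of the 12 pesticide groups and in the solvent control against the water control (horizontal). Dimethoate is set against the water control and the other pesticides against the solvent control. The bright chain transcripts are mostly below 0 for atrazine and carbendazim, while lombricine kinase and the dim transcripts are mostly above.

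For atrazine and carbendazim, bright and dim chain transcripts lay on opposite sides of the solvent control. These sets were formed by signal after their values were seen and are described without a test. The 11 bright transcripts had medians of −0.31, −0.31, −0.33 and −0.40 at atrazine EC10, EC20, EC50 and EC90, and of −0.34, −0.27, −0.25 and −0.44 at the 4 carbendazim concentrations. In 7 of these 8 groups 0 of 11 bright transcripts were higher than the solvent control, and in atrazine EC50 2 were. The 4 dim transcripts had medians of −0.23, 0.43, 0.75 and 0.57 for atrazine and of 0.66, 0.66, 0.61 and 0.40 for carbendazim. All 4 were higher in 6 of the 8 groups, 3 in carbendazim EC90 and 0 in atrazine EC10. Of all transcripts on the array in the same signal range as the bright ones (259), the medians ran from −0.23 to −0.01 over the 8 groups, and in the range of the dim ones (147) from 0.02 to 0.29. The split was smaller under other scalings: quantile normalization gave bright medians of −0.01, 0.00, −0.02 and −0.31 and dim medians of 0.36, 0.48, 0.36 and 0.25 for the 4 carbendazim groups, and normexp background correction gave dim medians of 0.06, 0.08, 0.05 and −0.05 there, so that the side of the dim set turned at EC90.

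All 8 groups share the same 3 solvent control arrays, and the position of those arrays matters for these values. The solvent control itself was above the water control in 10 of the 11 bright chain transcripts (median 0.29) and below it in all 4 dim ones (median −0.47). Without solvent control replicate 2 these were 8 of 11 bright transcripts higher (median 0.04) and all 4 dim ones lower (median −0.36). Of the 17, 0 were called between the controls, where 1.84% of all transcripts were (at an unadjusted limma p under 0.05, 1 of 17, against 11.2%). Solvent control replicate 2 stood apart in bright transcripts: cytochrome b read 13.67, 15.00 and 13.58 on the 3 arrays, ND4 15.76, 16.76 and 15.55, and the e chain EAC00748 13.86, 14.81 and 13.63. Without that array the bright medians were −0.11, −0.13, −0.09 and −0.24 for atrazine and −0.10, −0.03, −0.08 and −0.25 for carbendazim, and the dim medians were −0.35, 0.29, 0.64 and 0.45 and 0.53, 0.56, 0.50 and 0.29. In the bright signal range (259 transcripts) the medians were then 0.01, −0.08, −0.19 and −0.16 for atrazine and −0.15, −0.11, −0.12 and −0.07 for carbendazim. In the dim range (147) they ran from −0.03 to 0.24. Of the 11 bright chain transcripts, 2, 0, 4 and 1 were then higher than the solvent control for atrazine and 2, 5, 3 and 1 for carbendazim. On the slide that held solvent control replicate 3 with 5 atrazine arrays, the bright median was −0.13, and on the one with solvent control replicate 1 and 5 carbendazim arrays also −0.13. On the slide with solvent control replicate 2 it was −0.83.

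**Figure D4:**
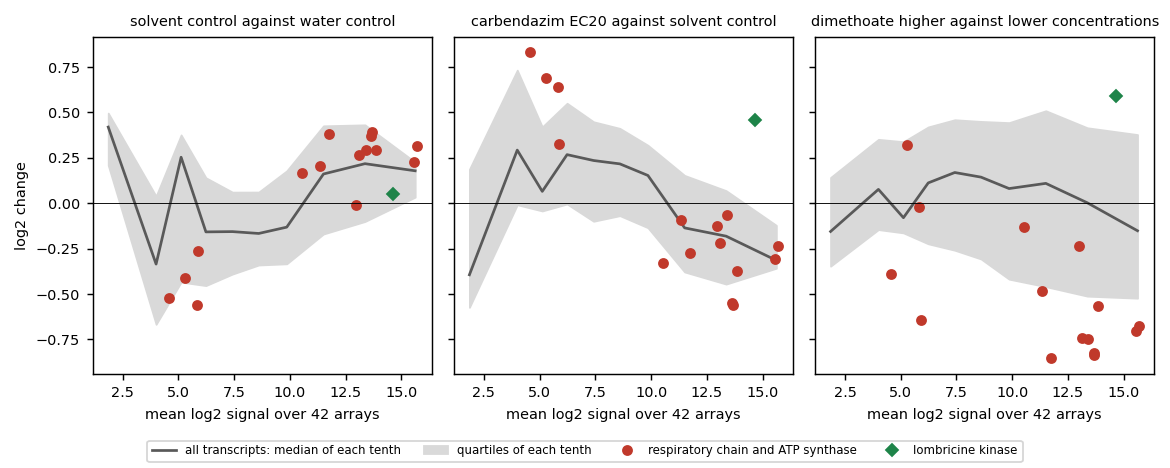
Log2 difference against mean log2 signal for the solvent control against the water control, for carbendazim EC20 against the solvent control, and for the higher against the lower dimethoate concentrations. Grey marks the median and quartiles of all 1035 transcripts in bins of equal number by signal, red points are chain and ATP synthase transcripts, and the green diamond is lombricine kinase. In the carbendazim panel the bright red points lie below 0 (median −0.27) and the dim ones above (median 0.66). Without solvent control replicate 2 these medians are −0.03, with 5 of 11 bright points higher, and 0.56. The sides are exchanged in the solvent control panel (0.29 and −0.47, or 0.04 and −0.36 without solvent control replicate 2).

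Carbendazim EC90 held the lowest e chain and ndufc2 values of the 4 carbendazim groups. The e chain EAC00665 read 13.94, 14.85 and 13.66 in the solvent control and 13.22, 13.20 and 13.43 in EC90, a difference of −0.87 (adjusted p 0.152). Its EC10, EC20 and EC50 differences were −0.57, −0.56 and −0.55, and against the water control the 4 concentrations gave −0.18, −0.17, −0.16 and −0.48. Its partner EAC00748 read 13.17, 13.19 and 13.40 in EC90, a difference of −0.85. The transcript of ndufc2 read 11.83, 12.49 and 11.67 in the solvent control and 11.36, 11.42 and 11.37 in carbendazim EC90, a difference of −0.61. Each of the 3 arrays of EC90 was below each solvent control in these 3 transcripts, as in 7 of the 17 and in 10.8% of all transcripts. Without solvent control replicate 2 the differences were −0.52, −0.49 and −0.37 (adjusted p 0.684, 0.707 and 0.876). Without the deviating scan, which holds no carbendazim array but enters the pooled spread, the 3 were called (adjusted p 0.00292, 0.00338 and 0.00513), in a comparison in which 6.18% of all transcripts were called lower.

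The ESSS subunit of complex I varied little among replicates, with a within-group SD of 0.119. It read 10.68 to 10.93 in the solvent control, 10.31 to 10.56 in carbendazim EC10, 10.45 to 10.47 in EC20, 10.25 to 10.42 in EC50 and 10.31 to 10.40 in EC90. All 12 carbendazim arrays were below the 3 solvent controls, and of the water controls (10.53 to 10.74) 1 lay within the carbendazim range. The share of all transcripts with all 12 below was not counted, and at EC90 alone 10.8% of all transcripts were below every solvent control. The ESSS differences from the solvent control were −0.35, −0.33, −0.47 and −0.44, and EC90 had an adjusted p of 0.0663 in limma. Without solvent control replicate 2 they were −0.36, −0.34, −0.48 and −0.46 (adjusted p 0.161 at EC90 in limma). Against the water control they were −0.18, −0.16, −0.30 and −0.27. EC50 (adjusted p 0.0209) and EC90 (adjusted p 0.0101) were called without the deviating scan, where 3.29% and 6.18% of all transcripts were called lower.

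With all arrays, cytochrome c oxidase VIa polypeptide 1, the dim complex IV transcript, had the smallest adjusted p of the 17 against the solvent control. It read 5.43, 5.06 and 5.56 there and 5.81, 6.08 and 5.83 in the water control. Carbendazim EC10 read 5.82, 6.15 and 5.98, EC20 6.03, 5.82 and 6.12, EC50 6.13, 6.11 and 6.20, and EC90 6.19, 6.03 and 5.91. All 12 carbendazim arrays were above the 3 solvent controls and overlapped the water control, and the share of all transcripts above these solvent controls was not counted. The differences from the solvent control were 0.63, 0.64, 0.79 and 0.69, with an adjusted p of 0.0564 at EC90, and from the water control 0.08, 0.08, 0.24 and 0.13. Without solvent control replicate 2, which read 5.06, those from the solvent control were 0.49, 0.49, 0.65 and 0.55 (adjusted p 0.310 at EC90 in limma). At EC90 quantile normalization gave 0.42 and normexp 0.24 against the solvent control. The solvent control was below the water control by −0.56 (adjusted p 0.24).

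In atrazine the same transcript read 5.30, 5.26 and 4.97 at EC10 and 6.13, 5.41 and 5.60 at EC20. It read 6.55, 5.73 and 6.27 at EC50 and 5.73, 6.57 and 5.73 at EC90. EC10 was thus as low as the solvent control and the higher concentrations were above it. The higher and lower concentrations of atrazine differed by 0.65 (adjusted p 0.0511), and without the deviating scan this difference was called (adjusted p 0.0179, with 3.67% of all transcripts called higher). At EC10, carbendazim was above atrazine by 0.81 (adjusted p 0.082). For dimethoate all 12 arrays lay between 5.62 and 6.01, inside or just below the water control.

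The other 3 dim transcripts all had their lowest group means in atrazine EC10, as polypeptide 1 did. The putative NADH dehydrogenase had differences between −0.29 and 0.33 from the solvent control. The gamma subunit of ATP synthase read 4.74 to 5.00 in the solvent control, 4.60 to 4.97 in atrazine EC10, and 5.36 to 5.65 in carbendazim EC10, EC20 and EC50, against 5.18 to 5.34 in the water control. Its differences from the solvent control were −0.05, 0.49, 0.75 and 0.59 over the 4 atrazine groups and 0.69, 0.69, 0.65 and 0.40 over those of carbendazim. The nadh:ubiquinone oxidoreductase differed by −0.38, 0.52, 0.74 and 0.54 for atrazine and by 0.72, 0.83, 0.56 and 0.39 for carbendazim, and it was not well above background on 2 of 3 atrazine EC10 arrays. From the water control it differed by 0.20, 0.31, 0.04 and −0.13 for carbendazim, so that most of the distance lay in the low solvent control. The putative NADH dehydrogenase differed from the solvent control by −0.29, 0.09, 0.20 and 0.12 for atrazine and by 0.24, 0.33, 0.25 and −0.15 for carbendazim. Over the 42 arrays the 6 pairs of dim transcripts had a median correlation of 0.499 (0.802 without the deviating scan). These points share arrays, slides and signal range.

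Between carbendazim and atrazine at the same EC, 0 of 17 transcripts were called at any concentration, where 2.9% of all transcripts were called at 1 or more (at an unadjusted limma p under 0.05, 3 of 17, all higher in carbendazim and all at EC10, against 26.1% of all transcripts, and with the methods' unadjusted t-test 7 of 17 against 39.3%). In this comparison the solvent control cancels. At EC10 the dim transcripts differed by 0.53 to 1.10, the bright chain transcripts by −0.24 to 0.16, and lombricine kinase by 0.53. Without the deviating scan, 4 transcripts were called at EC10, all higher in carbendazim: the gamma subunit (adjusted p 0.0312), the nadh:ubiquinone oxidoreductase (adjusted p 0.0216), polypeptide 1 (adjusted p 0.0256) and lombricine kinase (adjusted p 0.0256), where 2.51% of all transcripts were called higher. The doses at EC10 were 0.05 mg/kg of carbendazim and 0.2 mg/kg of atrazine, so the compounds were matched by effect and not by dose.

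Lombricine kinase was above both controls in every carbendazim group. It read 14.31, 14.40 and 14.67 in the solvent control, 14.73, 14.99 and 14.75 in EC10 and 15.07, 14.75 and 14.94 in EC20. In EC50 it read 14.98, 15.07 and 14.84, and in EC90 15.13, 15.25 and 15.05. The lowest of the 12 carbendazim arrays, 14.73, was above the highest array of either control, 14.67, and the share of all transcripts with this was not counted. The group means were 14.82, 14.92, 14.96 and 15.14, in the order of the concentrations, and the arrays of neighbouring groups overlapped. The lower and higher concentrations lay on separate slides, so slide and concentration cannot be told apart in this order. The differences from the solvent control were 0.36, 0.46, 0.50 and 0.68, and from the water control 0.42, 0.51, 0.56 and 0.74. EC90 was 1.61-fold above the solvent control (log2 0.68, SE 0.30, interval 0.08 to 1.29, adjusted p 0.217 in limma), and the difference was 0.74 under quantile normalization and 0.93 under normexp. Without solvent control replicate 2 the EC90 difference was 0.66 (adjusted p 0.435 in limma).

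Leaving out the deviating scan did not touch these carbendazim values and lowered the pooled spread of the kinase, whose dimethoate arrays in that scan read 13.25 and 13.02. EC20 (adjusted p 0.0484), EC50 (adjusted p 0.029) and EC90 (adjusted p 0.00129) were then called, with 2.71%, 3.57% and 7.44% of all transcripts called higher. On the slide that held solvent control replicate 1 with 5 carbendazim arrays, the kinase was higher by 0.71. That value rests on 1 control array, the lowest of the solvent controls for the kinase. In atrazine it read 14.30, 14.34 and 14.23 at EC10 and 14.99, 14.49 and 14.47 at EC20. It read 15.03, 14.94 and 14.63 at EC50 and 14.75, 14.70 and 15.00 at EC90. The EC10 arrays were within or below the solvent control and the EC90 arrays above it, and the higher and lower concentrations differed by 0.37, called only without the deviating scan (adjusted p 0.0249).

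**Figure D5:**
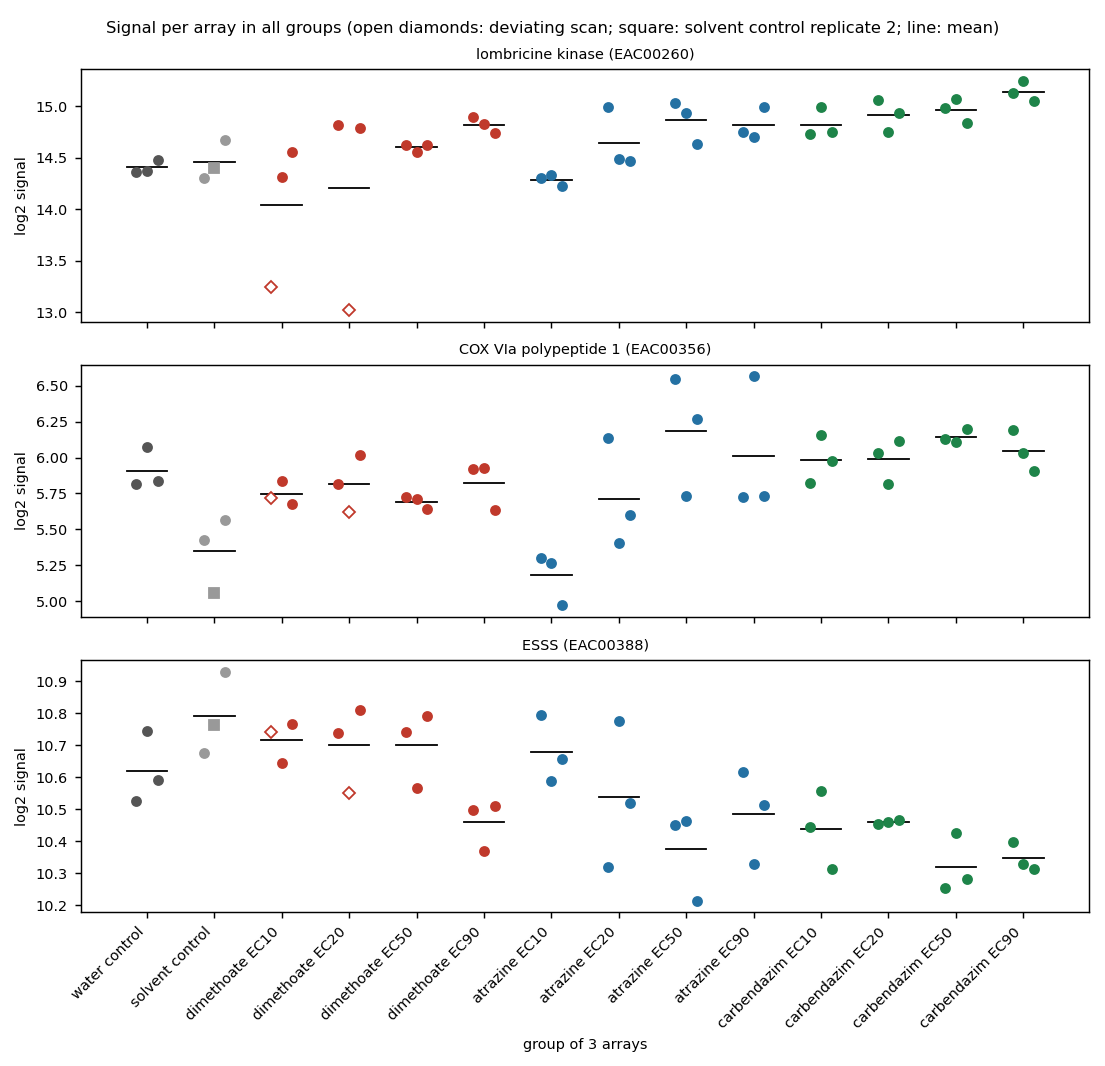
Log2 processed signal of lombricine kinase, cytochrome c oxidase VIa polypeptide 1 and the ESSS subunit of complex I on each array of the 14 groups. Open diamonds are the 2 arrays of the deviating scan and squares are solvent control replicate 2. Carbendazim arrays lie above the solvent control for the kinase (14.73 to 15.25 against 14.31 to 14.67) and polypeptide 1 and below it for ESSS.

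Ordered by mean level, lombricine kinase was lowest in dimethoate EC10 (14.04) and EC20 (14.21), then in atrazine EC10 (14.29), the water control (14.41) and the solvent control (14.46). Dimethoate EC50 (14.60) and atrazine EC20 (14.65) followed, then dimethoate EC90, atrazine EC90 and carbendazim EC10 (14.82 each), atrazine EC50 (14.87), carbendazim EC20 (14.92), EC50 (14.96) and EC90 (15.14). The lowest places rested on the deviating scan, without which the means were 14.44 in dimethoate EC10 and 14.80 in EC20 (2 arrays each). With a within-group SD of 0.361, neighbours in this order did not differ beyond their spread. Over the 14 group means, the transcripts most like it on the array were gl12416-like (EAC00354, r = 0.982), myosin alkali light chain 1 (EAC00541, r = 0.919) and a sequence without a name (r = 0.918). With that scan left out these were 0.971, 0.801 and 0.781, and the last 2 were no longer among the 3 highest. Over the 42 arrays its correlation with the 11 bright chain transcripts had a median of −0.667, negative in all 11 pairs, and −0.324 without the deviating scan. The bright chain transcripts had a median correlation of 0.821 over their 55 pairs, against −0.00902 over all pairs on the array, which span every signal range. The 55 ran from −0.0990 (isoform cra_a with ND1) to 0.999, and 52 were positive. Without that scan their median was 0.538, and all pairs were not computed there. These correlations are over arrays that share slides and scans and describe the arrays only.

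Of the transcripts related to the chain but outside the name rule, 3 were named cytochrome oxidase subunit i, the catalytic core of complex IV encoded in the mitochondrial genome, and 1 was the F1 alpha subunit of ATP synthase. EAC01043 fell between the lower and higher dimethoate concentrations (−0.88, 1.84-fold lower, adjusted p 0.0146), with no overlap of the 6 and 6 arrays, and lost the call without the deviating scan (−0.36, adjusted p 0.257). Against the solvent control it gave −0.20, −0.56, −0.62 and −0.63 for atrazine and −0.49, −0.59, −0.80 and −0.60 for carbendazim, as the bright chain transcripts did. EAC00307 and the dim EAC00106, which followed each other over the 42 arrays (r = 0.940), gave −0.56 and −0.43 for dimethoate, not called, and 0.31 and 0.46 at carbendazim EC50. Their dimethoate differences without the deviating scan were −0.00 and 0.17, and under normexp that of EAC00307 turned to 0.34. The F1 alpha subunit (EAC00511) differed by 0.23 for dimethoate, not called, or by −0.13 without the deviating scan and −0.09 under normexp, and by 0.37, 0.71 and 0.33 at atrazine EC20, EC50 and EC90.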

How the data were processed

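Intensities were deposited by the authors as Agilent Feature Extraction scanner output (version 10.5.1.1) with background-subtracted processed signals for 15208 probe spots. Outlier spots (421 to 1070 per array) were left out, the 14 or 15 spots of the 1 probe of each transcript were averaged, and log2 values were shifted to the median array (shifts of −1.29 to 0.50). Contrasts were fitted in limma 3.58.1 (R 4.3.3) with 14 group means over 42 arrays and Benjamini-Hochberg adjustment over 1035 transcripts. Sets of bright and dim transcripts were formed after their values were seen. The transcripts and lists were chosen with earlier results of these data known. Per the labels, replicates are separate samples, and the methods describe replicate vessels, each hybridised to its own array. For dimethoate, the soil for all vessels of a concentration was spiked together. The p-values therefore measure the spread between these arrays and not between separate spikings. The number of arrays limits the precision.

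Names in the study's supplementary list were linked to array sequences through its 12 columns of log2 ratios, which served as a key only. The 225 entries matched with differences of at most 0.00131, and the next sequence differed by at least 0.0371. The ratios and p-values of that list were not used otherwise. The series' deposited value table held the same processed intensities (largest difference 0), and 0 of 861 pairs of arrays were identical. Array values were given in all 14 groups for the kinase. For the 8 transcripts with the lowest adjusted p, with at least 1 of each complex, they were given in part of the groups. Values of ESSS, isoform cra_a, ND4 and the gamma subunit were added after they were seen.

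Alternatives were the 75th percentile and quantile scaling, normexp with an offset of 50 (on median spot and background signals), averaging of log2 spots, a filter on dim transcripts (962 left), slide or scan as a block, leaving out each array, the groups of each comparison only, a replicate block and the t-test of the methods. Leaving out the deviating scan with slide as a random block, the water control for all pesticides, differences between pesticides and within-slide values were added after seeing the data. The test was tested on simulated data. Summaries were made with pandas 2.3.3 and numpy 2.4.6 in Python 3.11.15, and figures were drawn with matplotlib 3.10.9.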

Additional observations from a re-analysis of the deposited data

Results flagged for a closer look

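The c subunit transcript EAC00240 is given here because the same contrast differed between dimethoate and atrazine by a test of the difference itself. In the same test against carbendazim it missed the threshold, and 0 of the 1035 transcripts were called. The difference between higher and lower concentrations of dimethoate minus that of atrazine was −0.85 on the log2 scale (limma, adjusted p 0.0285). Without the deviating scan the difference was −0.46 (adjusted p 0.0308). The concentrations of dimethoate lay on separate slides, so slide and concentration cannot be told apart.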

How the results depend on the processing

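Counts of called transcripts are of the 17 throughout, and the causes of their changes were not tested except where fewer arrays were fitted. Between the higher and lower dimethoate concentrations, 8 were called. Scan as a random block, slide as a fixed block and a fit of only the groups compared each gave 0. A t-test of the 4 group means with their pooled spread, without limma's moderation, gave 4 unadjusted (all lower, against 16.2% of all transcripts) and 0 after adjustment. Leaving out the deviating scan gave 3, with or without slide as a random block. Leaving out 1 array gave 2 to 10, and 2 were left without dimethoate EC10 replicate 1 or without dimethoate EC20 replicate 2. With slide as a fixed block EAC00240 differed by −0.86 (interval −1.75 to 0.03, adjusted p 0.533). The other scalings kept the direction of the chain transcripts they called: 75th percentile scaling called 9 and quantile scaling 7, all lower, and normexp called 6 lower and 1 higher but turned the sign of uncalled transcripts (EAC00068, EAC00388, EAC00356 and EAC00103, to 0.06, 0.17, 0.05 and −0.01). Leaving out the deviating scan, with 0 called in the main comparisons, gave 1 for dimethoate against control (isoform cra_a at EC90, adjusted p 0.0409, and 1 with slide as a random block), 2 for atrazine (the e chain pair at EC90), 7 for carbendazim (7 with slide as a random block), 3 for atrazine higher against lower and 4 for carbendazim against atrazine (3 with slide as a random block). Of all transcripts, 6.09%, 3.48% and 18.5% were then called at 1 or more concentrations of dimethoate, atrazine and carbendazim. In atrazine higher against lower 3.67% were called higher, and for carbendazim against atrazine at EC10 2.51%. A fit of only the groups compared gave 4 for carbendazim against atrazine, and 75th percentile scaling gave 1 for atrazine higher against lower. The methods' t-test without adjustment gave 9 for dimethoate, 6 for atrazine and 8 for carbendazim (31.3%, 15.2% and 32.2% of all transcripts). These counts are raised by construction. The same two-sample test gave 4 for the solvent against the water control (14.9%) and 7 for carbendazim against atrazine (39.3%), of which 1 (EAC00204) was left after adjustment. The unadjusted t-test of 4 group means gave 3 and 8 for atrazine and carbendazim higher against lower (10.1% and 18.4%). Leaving out 1 array gave 0 to 1 for atrazine (1 without atrazine EC50 replicate 2), 0 to 5 for carbendazim (5 without dimethoate EC20 replicate 2, 2 without dimethoate EC10 replicate 1, and 1 without atrazine EC20 replicate 1, EC50 replicate 2 or EC90 replicate 2), 0 to 3 for atrazine higher against lower (3 without atrazine EC50 replicate 2, and 1 without any of water control replicate 2, the 3 solvent controls, dimethoate EC10 replicate 1, dimethoate EC20 replicates 2 and 3, atrazine EC20 replicate 1 or carbendazim EC20 replicate 2), 0 to 2 for carbendazim against atrazine (2 without dimethoate EC10 replicate 1), and 0 throughout for the rest. Replicate numbers did not pair the arrays (correlations of same-numbered deviations −0.789 to 0.633, median 0.0099), and with a replicate block 7 were called for dimethoate higher against lower, the kinase being lost, and 0 elsewhere.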
